A study of Mus musculus with 6 samples.

Results

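The genes that encode the chains of laminin, the main protein network of basement membranes, were compared between wildtype (WT) and Mcm8 knockout (KO) mouse embryo fibroblasts (MEFs). The 9 chains Lama1, Lama2, Lama3, Lama4, Lama5, Lamb1, Lamb2, Lamb3 and Lamc1 were taken by gene name from the 55565 genes listed. The family was picked because Lama5 was higher in KO MEFs, so the values of the chains in KO against WT are given as a description, without p-values. RNA was sequenced in 3 WT and 3 KO libraries. Embryos of both genotypes came from matings between Mcm8 heterozygous mice of mixed C57BL/6J × ICR stock. KO embryos carry a CRISPR-Cas9 deletion of an exon of Mcm8 that shifts the reading frame. The MEFs of both genotypes were grown from the trunks of embryos of day 13.5, without head, tail, limbs, heart and liver, underwent immortalization by the SV40gp6 lentivirus and were selected with puromycin. The study speaks of 3 biological repeats but does not state whether these were separate embryos or cultures, so p-values measure only the spread between these libraries, which may be technical.

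A laminin is a cross-shaped trimer of an alpha, a beta and a gamma chain, joined along a coiled coil inside the cell and secreted whole. Trimers are named after their chains, so that laminin-511 holds alpha5, beta1 and gamma1. The alpha chain ends in globular domains that bind integrins and dystroglycan on the cell surface, and an alpha chain is needed for the trimer to be secreted. The N-terminal domains of the long chains join trimers into a sheet, and the gamma1 chain is tied by nidogens to type IV collagen. Fibroblasts and other mesenchymal cells are known mainly for alpha2 and alpha4 laminins, epithelia and mature blood vessels for alpha5.

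The total was 12722979 to 19019695 counts in a WT library and 15954793 to 21022755 in a KO library. Mcm8 was lower in KO (log2 fold change -1.75, standard error 0.16, adjusted p = 4.45e-26, edgeR quasi-likelihood test), as the labels have it. The library WT1 stood apart from WT2 and WT3. The chi-square of the counts per gene, which is near 1 under sampling noise alone, was 14.3 and 13.3 between WT1 and the other WT libraries, 4.40 between WT2 and WT3, and 2.63 to 3.05 within KO. WT1 also read low in long genes. Against the mean of WT2 and WT3, the median log2 ratio of WT1 was 0.24 over 1022 genes shorter than 2 kb and -0.17 over 2013 genes of 8 kb or longer (genes of at least 10 CPM, counts scaled to library size). In KO libraries the same medians lay between -0.02 and 0.01. The 9 chain genes are long, from 6082 bases of counted length (Lamb2) to 16605 (Lama2). The fit was repeated without WT1, and for the chains, partners and receptors whose log2 fold change is printed the value without it is given where leaving it out changed the call or moved the value by over 1.5 times.

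Lama5 (ENSMUSG00000015647) lies on chromosome 2, from 179818166 to 179867652 on the minus strand in the deposited coordinates (taken as GRCm39), 47.1 Mb from Mcm8. It encodes alpha5, with 3718 residues over 79 coding exons the longest of the 9 chains in the GENCODE M21 gene models. Its level was 1.33, 1.98 and 1.85 FPKM (fragments per kilobase of gene, scaled to the size of the library) in WT1, WT2 and WT3, and 8.58, 7.88 and 8.75 FPKM in KO1, KO2 and KO3. Every KO library was thus above every WT library. The counts behind these values were 194, 317 and 396 in WT and 2082, 1497 and 1603 in KO. The mean was 1.72 ± 0.341 FPKM in WT and 8.40 ± 0.462 FPKM in KO (mean ± SD, n = 3 each), a 4.85-fold difference (log2 fold change 2.28, standard error 0.09 from the edgeR fit). Leaving out each library in turn, the log2 fold change lay between 2.14 (without WT1) and 2.38 (without WT2). Mir7005 was the only listed gene that overlaps Lama5, and it had no counts in any library. The 250 bases before the start site of Lama5, the chain for which the family was picked, are given here from the RefSeq promoter table. They lie at chr2:180225860-180226109 of GRCm38.p6, on the minus strand, and capitals mark GGGCGG on either strand (CCGCCC on the printed strand), the GC box bound by Sp-family factors.
Lama5 promoter: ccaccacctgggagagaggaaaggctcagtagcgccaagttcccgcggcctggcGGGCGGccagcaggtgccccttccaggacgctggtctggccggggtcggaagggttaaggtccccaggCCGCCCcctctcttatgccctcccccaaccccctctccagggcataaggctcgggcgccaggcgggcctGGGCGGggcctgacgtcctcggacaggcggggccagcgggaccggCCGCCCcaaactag
The window holds 4 GC boxes, and 32.7% of 32851 promoter windows of this length hold at least 1. Its GC content is 72.4% and it holds 19 CpG, against medians of 52.4% and 6 over all windows. The TATA box letters TATAAA do not occur in it on either strand, and 12.4% of the windows hold them. The same is true of the CCAAT box, which 33.8% of the windows hold, and of the E-box CACGTG, which 6.02% hold. A match is a description of the sequence, and no binding was measured here.

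Lama4 (ENSMUSG00000019846, chromosome 10, from 38841511 to 38986184, plus strand) encodes alpha4, a short alpha chain of 1816 residues that lacks the N-terminal domain for network assembly. Its level was 4.83, 5.58 and 5.76 FPKM in the WT and 3.49, 3.18 and 3.36 FPKM in the KO libraries. All KO libraries lay below all WT libraries. The mean was 5.39 ± 0.494 FPKM in WT and 3.35 ± 0.156 FPKM in KO (log2 fold change -0.69, standard error 0.09), so that WT MEFs had 1.61 times the KO level. With a library left out the log2 fold change ran from -0.76 (without WT1) to -0.63 (without WT3). Alpha5 carries the domain that alpha4 lacks.

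Lama2 (ENSMUSG00000019899, chromosome 10, from 26856032 to 27495754, minus strand) encodes alpha2, the laminin chain of skeletal muscle and Schwann cell basement membranes, whose loss causes a congenital muscular dystrophy. Its level was 1.22, 1.95 and 1.82 FPKM in WT and 1.86, 2.04 and 1.97 FPKM in KO. The groups overlapped, and WT1 was the low library. The log2 fold change was 0.23 with a standard error of 0.10 and was not called. It was 0.05 without WT1 and 0.34 without WT2, where the gene would be called.
Lama1 (chromosome 17), the alpha chain of the earliest embryonic basement membranes, and Lama3 (chromosome 18), that of epidermal laminin, were close to the floor. Lama1 had 4, 6 and 4 counts in WT and 3, 1 and 15 in KO, with KO3 above the others. Lama3 had 4, 4 and 1 counts in WT and 8, 4 and 1 in KO. No fold change is given for either gene, since a few reads decide it.

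**Figure D1:**
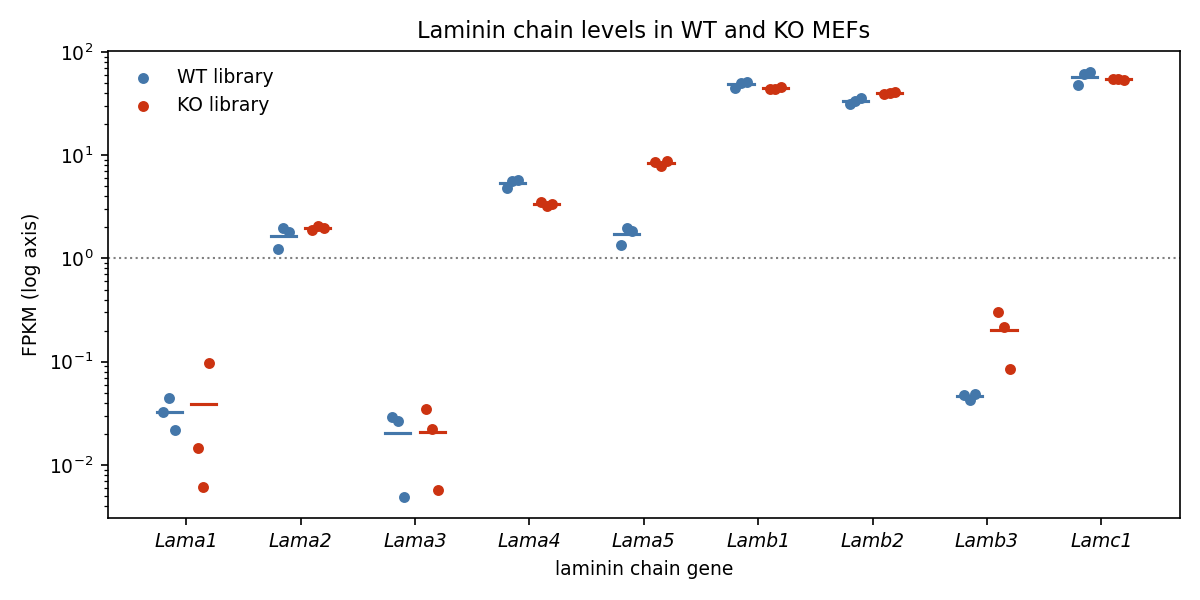
Level of each laminin chain gene in FPKM on a log axis, with WT libraries in blue, KO libraries in red, a bar for the mean of 3 libraries and a dotted line at 1 FPKM. Lama5 has a mean of 1.72 FPKM in WT and 8.40 FPKM in KO, Lama4 of 5.39 and 3.35 FPKM, and Lamc1, Lamb1 and Lamb2 lie at 30.96 FPKM or more in every library.

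The alpha chains together made up a larger and differently composed pool in KO MEFs. Their summed level was 7.45, 9.59 and 9.45 FPKM in WT and 14.0, 13.1 and 14.2 FPKM in KO. Lama5 held 17.9%, 20.7% and 19.5% of this sum in WT and 61.3%, 60.0% (59.99%) and 61.7% in KO. The mean share of Lama5 was 19.4% ± 1.38 in WT and 61.0% (60.99%) ± 0.888 in KO (SD, n = 3). Lama4 went the other way, with 61.3% ± 3.34 in WT and 24.3% ± 0.644 in KO. Lama2 held 18.7% ± 2.05 and 14.3% ± 1.15. Lama4 and Lama5 thus changed places as the most abundant alpha chain, and the ratio of Lama5 to Lama4 was 0.276, 0.355 and 0.321 in WT and 2.45, 2.48 and 2.60 in KO. Such a ratio is formed within a library and so does not depend on how libraries were scaled to each other. WT1 had the lowest ratio, and without it the WT values were 0.355 and 0.321.

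**Figure D2:**
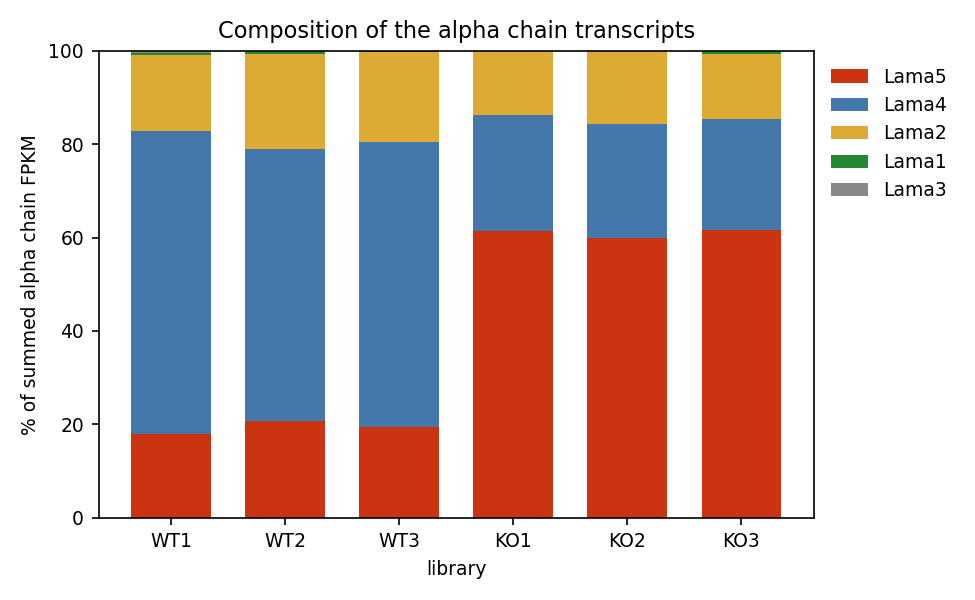
Share of each alpha chain in the summed alpha chain FPKM of each library, in percent, stacked to 100. Lama5 takes from 17.9% to 20.7% of the bar in WT and from 60.0% to 61.7% in KO, Lama4 from 58.2% to 64.9% and from 23.7% to 25.0%.

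Of the beta and gamma chains, Lamb1, Lamb2 and Lamc1 were abundant and Lamb3 had few reads. Lamb1 (ENSMUSG00000002900, chromosome 12, from 31315233 to 31379643, plus strand) encodes beta1, the beta chain of most embryonic laminins. It was measured at 44.5, 50.1 and 50.9 FPKM in WT and 44.1, 43.8 and 46.1 FPKM in KO, and the groups overlapped through WT1. The log2 fold change was -0.12 (standard error 0.07) and was not called, but was -0.18 and called without WT1.
Lamb2 (ENSMUSG00000052911, chromosome 9, from 108356935 to 108367729, plus strand) encodes beta2, the chain known from the neuromuscular junction and the kidney glomerulus. Its level was 31.0 (30.96), 33.7 and 35.6 FPKM in WT and 39.0 (38.96), 40.4 and 40.7 FPKM in KO. All KO libraries were above all WT libraries, by a log2 fold change of 0.26 (standard error 0.07). The gene met the call rule in the fit of all libraries, and no longer without KO2 (log2 fold change 0.25). Within a library the ratio of Lamb1 to Lamb2 was 1.44, 1.49 and 1.43 in WT and 1.13, 1.09 (1.085) and 1.13 in KO, with no overlap.
Lamb3 (ENSMUSG00000026639, chromosome 1, from 192890007 to 193026186, plus strand), the beta chain of epidermal laminin, had few reads. It was counted 4, 4 and 6 times in WT and 43, 24 and 9 times in KO. The KO libraries lay above the WT libraries and were themselves spread from 0.0846 to 0.305 FPKM. The log2 fold change was 2.12 with a standard error of 0.51, and without KO1 it was 1.68 and not called. Of the 6 listed genes that overlap Lamb3, G0s2, on the opposite strand, was the only one called, with 1, 1 and 4 counts in WT and 14, 16 and 11 in KO. The strand setting of the counting is not given in the sources used here, so reads of overlapping genes cannot be told apart for certain.

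Lamc1 (ENSMUSG00000026478, chromosome 1, from 153094668 to 153208532, minus strand) encodes gamma1, which is part of nearly all laminins outside the epidermis. It was the most abundant chain in the mean of both genotypes, at 48.2, 60.9 and 63.8 FPKM in WT and 54.9, 55.2 and 53.6 FPKM in KO. The KO values fell inside the range of the WT values. The log2 fold change was -0.08 (standard error 0.07) and was not called, but was -0.20 and called without WT1. Lamc3, a gamma chain outside the rule, had at most 4 counts in a library.

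A gene was called when its adjusted p-value was below 0.05 in the edgeR fit over all 26898 genes tested, which called 4.97% of them higher and 4.03% lower in KO. Among the 9378 genes with a mean of at least 10 CPM the share called was 17.1%. By this rule 3 of the 9 chains were higher in KO (Lama5, Lamb2 and Lamb3), 1 was lower (Lama4) and 5 were not called. All 9 chains were tested, but Lama1, Lama3 and Lamb3 would be dropped by edgeR's filter on low counts. The median log2 fold change of the 9 chains was 0.23, and that of all genes tested was 0.01. A call with a rise of more than 2-fold, met by 1.75% of all genes, was reached by Lama5 and Lamb3. Of the 9 chains 3 had every KO library above every WT library, as 11.6% of all genes did, and 1 had every KO library below, as 10.1% did. Since the family was picked on this contrast, nothing is read from these counts.

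**Figure D3:**
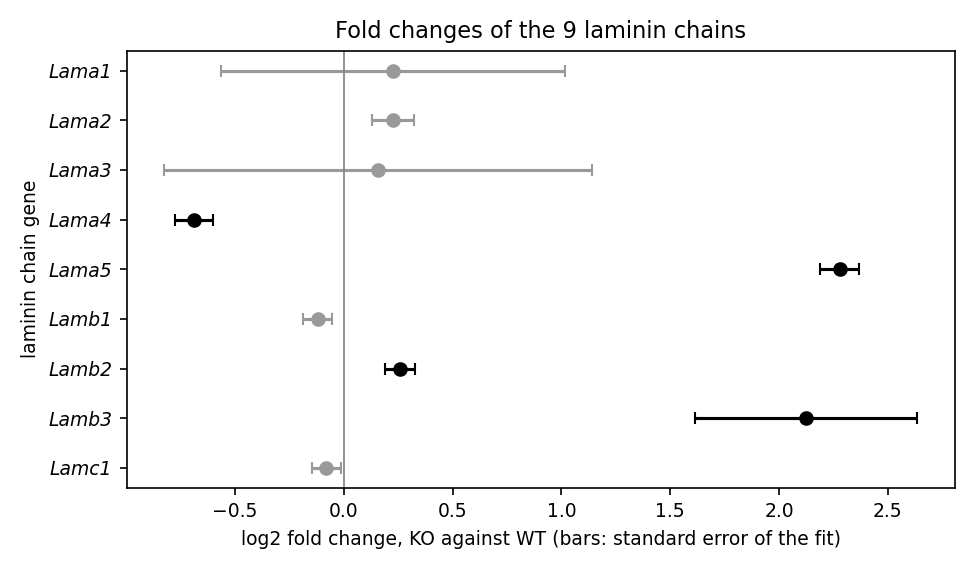
Log2 fold change of each laminin chain in KO against WT MEFs from the edgeR fit, with bars for the standard error, called genes in black and others in grey. Lama5 lies at 2.28 and Lama4 at -0.69, while Lamb1 and Lamc1 lie within 0.12 of 0 and the bars of Lama1 and Lama3 are wide because of their few counts.

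The order of the levels per length was Lamc1, Lamb1, Lamb2, Lama4, Lama5, Lama2, Lamb3, Lama1, Lama3 and Lamc3 in WT. Neighbours overlapped in range for Lamc1 and Lamb1, for Lama5 and Lama2, and from Lamb3 downwards. In KO the order was the same but for Lama5, which stood before Lama4, and ranges overlapped only from Lamb3 downwards. In both genotypes beta transcripts exceeded alpha transcripts. The summed beta level was 9.35 ± 0.711 times the alpha level in WT and 6.17 ± 0.238 times in KO (SD, n = 3).

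Which laminins the transcripts allow was read from 14 trimers known in mammals. A trimer was counted as allowed where each of its chains had a mean above 1 FPKM. In WT and in KO 6 trimers were allowed, the same ones: laminin-211, laminin-221, laminin-411, laminin-421, laminin-511 and laminin-521. Each of them holds Lamc1, either Lamb1 or Lamb2, and an alpha chain that is its least abundant chain. Laminin-111 and laminin-121 failed for Lama1, at 0.0328 ± 0.0111 FPKM in WT and 0.0390 ± 0.0498 in KO. Laminin-311 and laminin-321 failed for Lama3, at 0.0202 ± 0.0133 and 0.0210 ± 0.0146 FPKM. Laminin-213, laminin-423 and laminin-523 failed for Lamc3. With a threshold of 5 FPKM the genotypes parted, since laminin-411 and laminin-421 alone remained in WT, and laminin-511 and laminin-521 alone in KO. The WT result is close to the limit, as Lama4 had a WT mean of 5.39 FPKM and was below 5 FPKM in WT1 (4.83 FPKM). The KO result rests on Lama5, for which the family was picked. RNA levels give the chains at hand and not the trimers made, and protein was not measured here.

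Among the partners of laminin in the basement membrane more genes were higher than lower in KO MEFs. Of 20 genes, 10 were higher, 1 was lower and 9 were not called, where 4.97% of all genes tested were higher and 4.03% lower and 17.1% of genes of at least 10 CPM were called. The median log2 fold change was 0.41, against 0.01 over all genes. Tinagl1, a matricellular glycoprotein of basement membranes, was measured at 11.8, 11.7 and 11.2 CPM in WT and 42.0 (42.01), 37.4 and 41.8 CPM in KO (log2 fold change 1.81, standard error 0.11, edgeR adjusted p = 1.33e-59). Nid2, a nidogen that links the gamma1 chain to type IV collagen, was at 24.7, 32.6 and 31.6 CPM in WT and 91.8, 100.8 and 99.9 (99.85) CPM in KO (1.71, 0.09, edgeR adjusted p = 2.21e-86). Its relative Nid1 was not called at 0.13 (standard error 0.06), and its value was 0.03 and not called without WT1, and 0.20 and called without WT2. Ntn4, a netrin that binds laminin gamma chains and loosens laminin networks, rose from 3.19 ± 0.352 to 10.1 ± 1.19 CPM (1.64, 0.18, edgeR adjusted p = 3.14e-17). Smoc2, a secreted calcium-binding protein, rose from 7.09 (7.085) ± 0.355 to 17.1 ± 0.144 CPM (1.28, 0.14, edgeR adjusted p = 4.79e-18). These 4 genes had no overlap between genotypes and kept their call with any library left out. They were taken as the called genes with the largest rises, so this is a description. Every KO library lay above every WT library in 11.6% of all genes.
Further genes of the list, described after their values were seen, are proteoglycans and collagen IV network genes. The heparan sulfate proteoglycan Agrn, which binds the laminin coiled coil, rose by a log2 fold change of 0.41. The collagen IV chains Col4a1 and Col4a2, which form the second network of the basement membrane, rose by 0.40 and 0.44, and Pxdn, the peroxidase that crosslinks that network, rose by 0.47. Perlecan (Hspg2), a proteoglycan of long gene length, was at 1370, 2244 and 2370 CPM in WT and 2648, 2597 and 2738 CPM in KO. Its log2 fold change of 0.42 was 0.21 without WT1, and DESeq2 did not call it. Col4a5 was lower by -0.23 (edgeR adjusted p = 0.0336), but was not called without WT3 or without any 1 of the KO libraries. Sparc, a collagen-binding matricellular protein, had the highest level of the list at 341 ± 11.7 FPKM in WT and 372 ± 2.90 FPKM in KO. It was not called in the fit of all libraries (log2 fold change 0.13), but was called higher at 0.14 without WT1 (edgeR adjusted p = 0.000384).

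Among 15 laminin receptors 9 were higher, 2 were lower and 4 were not called, against the same 4.97% higher and 4.03% lower over all genes (17.1% called at 10 CPM or more). The median log2 fold change of the receptors was 0.35. The Lutheran glycoprotein Bcam, a receptor that is known to bind alpha5 laminins, was measured at 1.72, 1.43 and 0.698 CPM in WT and 4.20, 3.19 and 3.25 CPM in KO (log2 fold change 1.52, standard error 0.30, edgeR adjusted p = 1.14e-05). The integrin alpha3 gene Itga3 was at 25.0, 22.2 and 26.7 CPM in WT and 66.0 (66.04), 63.4 and 67.8 CPM in KO (1.41, 0.09, edgeR adjusted p = 8.51e-52). Itga6, the other integrin alpha chain with a preference for alpha5 laminins, rose from 34.9 ± 1.63 to 70.3 ± 1.16 CPM (1.01, 0.09, edgeR adjusted p = 3.38e-29). The heparan sulfate carrier Sdc4 rose from 54.1 ± 5.96 to 119 ± 4.42 CPM (1.14, 0.08, edgeR adjusted p = 4.41e-45). In these 4 genes no KO library overlapped a WT library, as every KO library lay above every WT library in 11.6% of all genes. They, too, were taken for the largest rises among called genes with a mean of at least 1 CPM, so this is a description. Itga2, an integrin alpha chain that also binds collagen, was called higher from few counts, with 1, 1 and 3 in WT and 36, 18 and 11 in KO.
Mcam, a cell surface receptor of mesenchymal and vascular cells that binds alpha4 laminins, moved the other way, from 54.6, 53.9 and 54.4 CPM in WT to 31.9, 31.4 and 29.9 (29.85) CPM in KO (log2 fold change -0.81, standard error 0.09, edgeR adjusted p = 3.74e-17). In Mcam, too, the genotypes did not overlap, but the gene was taken because it was called, and 10.1% of all genes had every KO library below. Itgb1, the beta chain that pairs with these integrin alpha chains, was lower by -0.19 (edgeR adjusted p = 0.0229) and was not called without any 1 of the KO libraries. Itgb4, the other beta chain that pairs with integrin alpha6, was not called (0.24, standard error 0.26, and 0.04 without WT1). Dag1, the dystroglycan gene, was not called (0.13, standard error 0.07, and 0.06 without WT1). Rpsa, a ribosomal protein also described as a laminin receptor, had the highest level of the list, at 366 ± 39.5 FPKM in WT and 343 ± 5.29 in KO, and was not called (log2 fold change -0.09, and -0.0057 without WT1).

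In the lists on dystroglycan, the other main laminin receptor, 1 of 20 genes was called, no larger a share than over all genes, so nothing is read from it. Of 8 genes of the dystroglycan complex 0 were called by edgeR and 0 by DESeq2, which gave no adjusted p for 2 of them, and 1 gene, Sgce, had an unadjusted edgeR p under 0.05. Utrn, the dystrophin relative that ties dystroglycan to actin, had the highest level of that list and was at 172, 256 and 246 CPM in WT and 244, 239 and 240 (239.6) CPM in KO, again with WT1 low (log2 fold change 0.10, and -0.06 without WT1, not called in either fit). Of 12 genes that build the laminin-binding sugar of dystroglycan 1 was called lower, Rxylt1 (log2 fold change -0.29, standard error 0.09, edgeR adjusted p = 0.0173), a call that was lost without KO1 or without KO3. Pomgnt1, with the highest level of this list, was at 12.2 ± 0.667 FPKM in WT and 13.1 ± 0.451 FPKM in KO and was not called. The median log2 fold changes of the lists were 0.00060 and 0.0098. Over the 4 lists together 19 of 55 genes were called higher and 4 lower, and 9 of the 19 passed a 2-fold change. Over all genes 4.97% were called higher, 4.03% lower and 1.75% higher by more than 2-fold, and 17.1% were called among genes of at least 10 CPM.

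**Figure D4:**
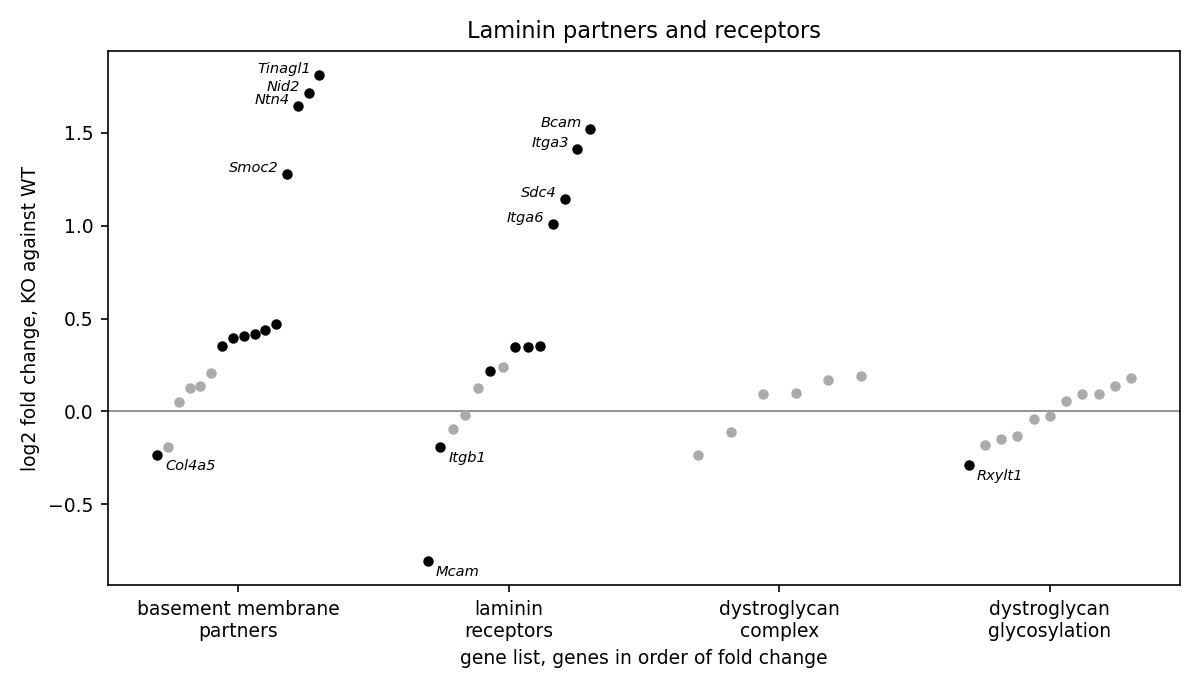
Log2 fold change in KO against WT MEFs of the genes with a mean of at least 1 CPM in 4 lists of laminin partners, receptors, dystroglycan complex and dystroglycan-modifying genes, with called genes in black and others in grey. Tinagl1 (1.81) and Bcam (1.52) top the lists of partners and receptors, Mcam (-0.81) is the lowest gene plotted, and the dystroglycan lists stay between -0.29 and 0.19.

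Markers of other cell types were read from fixed lists, since epithelia, mesothelium and vessels also make alpha5 laminins. Fibroblast markers were high in both genotypes, with a summed level of 3328 to 3728 FPKM in WT and 3615 to 3732 FPKM in KO. Of the 10 genes of that list 3 were higher and 3 lower in KO. The higher ones were Col1a1 (log2 fold change 0.20), Col3a1 (0.29) and Fn1 (0.29, 0.12 without WT1, not called by DESeq2). The lower ones were Thy1 (-1.03), Pdgfrb (-0.74) and Vim (-0.19, not called without KO1 or without KO2). Over all genes tested 4.97% were called higher and 4.03% lower, and 17.1% were called among genes of at least 10 CPM. The 10 epithelial markers summed to 2.02 to 2.92 FPKM in WT and 7.21 to 7.93 FPKM in KO. Of 8 tested, 3 were called higher (Krt8, Krt18 and Krt19), against 4.97% of all genes. Krt8 had few counts, with 0, 0 and 1 in WT and 13, 15 and 12 in KO. Krt5 and Esrp1 were listed at 0 in every library, and Epcam was at 0.112 FPKM in WT and 0.227 in KO. Krt19 is in the epithelial and in the mesothelial list and enters both sums. The 8 mesothelial markers summed to 2.71 to 3.23 (3.225) FPKM in WT and 17.1 to 19.7 FPKM in KO. Most of this sum was Krt19 in WT (1.94 ± 0.319 FPKM, beside 0.938 ± 0.0545 FPKM of Msln) and Msln in KO (14.6 ± 0.996 FPKM, beside 3.50 ± 0.442 FPKM of Krt19). Of the other mesothelial markers, Lrrn4 and Muc16 were listed at 0 in every library, and Upk3b had 2 counts in KO2 and 0 in the other libraries. Wt1 had 5, 4 and 2 counts in WT and 4, 5 and 7 in KO, Upk1b had 3, 2 and 0 in WT and 0 in KO, and Gpm6a had at most 1 count in a library. The 8 endothelial markers summed to 0.638 FPKM or less in a library, with Tie1, Emcn and Cldn5 listed at 0. The summed level was at most 0.171 FPKM for skeletal muscle and 2.34 FPKM for blood cell markers. In these 3 lists 0 genes were called by edgeR and 0 by DESeq2, which gave no adjusted p for 4 of the 5 endothelial, 6 of the 7 muscle and 3 of the 4 blood genes tested. Kdr was called without WT2 (log2 fold change 0.84). An unadjusted edgeR p under 0.05 was met by 1 blood marker (Lyz2). The genotypes also differed in sex-linked genes, with Xist at 940 to 1359 CPM in WT and 474 to 494 CPM in KO, and Ddx3y at 6.77 to 8.70 CPM in WT and 38.7 to 48.7 CPM in KO. Both genes were read in every library, so each library may hold cells of both sexes, in shares that may differ between the genotypes. The part of these marker differences and of the sex-linked genes in the laminin levels was not tested. In bulk RNA, fewer cells of a type and less RNA per cell cannot be told apart.

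The genes most like Lama5 were taken by the Pearson correlation of log2(CPM + 1) over the 6 libraries, among genes with a mean of at least 10 CPM. The 5 closest were Ccbe1 (r = 0.999), Hnrnpa3 (0.998), Myo5c (0.998), Vasn (0.998) and Ltbp1 (0.998), all called higher in KO, with log2 fold changes of 1.06, 0.42, 1.44, 0.66 and 0.62. Ccbe1 encodes a secreted protein with a collagen-like domain and Ltbp1 a binding protein of latent TGF-beta in the matrix. Of the 9377 other genes of this level 49 had an r of at least 0.99. The points share the split into 2 groups of 3 libraries, by which these genes differ too, and no p is given.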

How the data were processed

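Counts per gene and FPKM values of 3 WT and 3 KO libraries were analysed. Total RNA was made into NEBNext Ultra libraries and sequenced as read pairs. By the submitters' processing notes and the study's methods, the authors aligned reads with HISAT2 2.0.5 to an Ensembl mouse assembly (the release that the methods name is built on GRCm39), counted them with featureCounts 1.5.0-p3 and deposited raw counts. The deposited FPKM values were made by the authors from these counts, and were proportional to counts over gene length within each library. The notes name GRCm38, but the deposited starts of the laminin genes all differ from those of GRCm38 models (GENCODE M21), so positions are given as deposited and taken as GRCm39. No GRCm39 annotation was used here. Promoter sequences came from RefSeq (GRCm38.p6), whose table held 5 of the 9 chains, and coding lengths from GENCODE M21.

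Of 55565 genes, the 26898 whose FPKM exceeded 0 somewhere were tested with edgeR 4.0.16 (R 4.3.3, TMM scaling, quasi-likelihood F test, no covariates, Benjamini-Hochberg adjustment over all genes tested). A gene was called at an adjusted p below 0.05. The fit estimated infinite prior degrees of freedom, so every gene takes its spread from the trend, and p-values of more variable genes are too small. With edgeR's filter on low counts the log2 fold change of Mcm8 stayed at -1.75, but its edgeR adjusted p was 2.44e-06. The size of the adjusted p-values given here thus depends on which genes were tested. CPM is scaled with TMM factors. Levels of different genes were compared only as FPKM. The fit was also run on counts simulated with a shared spread for all genes, which cannot show errors from genes that vary more. Counts of 3 or fewer were taken as the floor. Permuting 3 against 3 libraries exactly cannot give a p below 0.1 and was not done.

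The members and lists were chosen with earlier results of these data known. Named genes were the chains, Mcm8, in each partner or receptor list the gene of highest level and up to 4 called genes in each direction with the largest changes and a mean of at least 1 CPM, the 5 genes most like Lama5, markers of the lists described, Xist, Ddx3y and genes overlapping a chain, with Lamc3. Some genes are not reported here. Agrn, Col4a1, Col4a2, Pxdn, Hspg2, Nid1, Itga2, Itgb4, Dag1, Sgce and the neighbours of Lama5 were added after their values were seen. Alternatives covered DESeq2 1.42.0, RLE scaling, gene filters, a robust prior spread, a test against a 2-fold change, a block for the replicate number, leaving out each library, other units and other FPKM thresholds. Labels do not state that same-numbered libraries belong together. The reported values use all 6 libraries. Other data of the study were not analysed here. Calculations also used Python 3.11.15 (pandas 2.3.3, NumPy 2.4.6, matplotlib 3.10.9).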

Additional observations from a re-analysis of the deposited data

How the results depend on the processing

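The number of chains called higher in KO was 3 and ran from 2 to 4 with a library left out, and that of chains called lower was 1 and ran from 1 to 3. Without WT1, Lamb1 and Lamc1 joined Lama4, and the cause was not tested. The 2 chains called with a 2-fold change became 1 with filterByExpr, which drops Lamb3, 1 in a test against a 2-fold change, and 1 to 2 with a library left out (1 without KO1). The 19 partner and receptor genes called higher ran from 17 to 21, and the 4 called lower from 1 (without KO1 or KO3) and 2 (without KO2) to 4, with Mcam alone remaining at 1. The share of Lama5 in the alpha chains was 17.3% in WT and 56.5% in KO when counts were not divided by length, and with a library left out lay between 18.7% and 20.1% in WT and between 60.7% and 61.5% in KO. The 6 allowed trimers became 2 in WT and 2 in KO above 5 FPKM, as given. The log2 fold change of Mcm8 ran from -1.84 to -1.64. With the replicate number as a block, 3 chains were higher, 1 lower, and 19 and 4 partner genes were called, so these counts did not move. Deviations of same-numbered libraries from their genotype means correlated at -0.00166, -0.00475 and 0.04. These values show no pairing by number, but with WT1 apart from WT2 and WT3 they cannot exclude it. Depth limits Lama1, Lama3, Lamb3 and Lamc3.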

Other observations

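The protein-coding genes within 250 kb of Lama5 were read after the values of Lama5 had been seen. Of 13 such genes 11 were tested and 0 were called by edgeR or by DESeq2, and 2, Mtg2 (-0.26) and Adrm1 (0.16), had an unadjusted edgeR p under 0.05. DESeq2 gave no adjusted p for 1 of the 11. Over all genes 4.97% were called higher and 4.03% lower, and 17.1% were called among genes of at least 10 CPM. With so few neighbours nothing is read from the lack of calls. The proteasome genes Psma7 and Adrm1 were at 143 and 120 CPM in WT and 147 and 134 CPM in KO, with log2 fold changes of 0.04 and 0.16. The ribosomal protein gene Rps21 was at 173 and 185 CPM (0.10), and Cables2 at 30.2 and 29.5 CPM (-0.04). Gata5 and Hrh3 were listed at 0 in every library. These values come from the fit of all 6 libraries, in which WT1 was above WT2 and WT3 for Rps21 (211 CPM against 130 and 178) and Psma7 (161 CPM against 127 and 140).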
